A study of Rattus norvegicus with 18 samples.

Results

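The nuclear genes for oxidative phosphorylation in rat hippocampus are described here across a chemical and an electrical model of epilepsy. Genes were taken by symbol from the deposited table of read counts: those starting Ndufa, Ndufb, Ndufc, Ndufs, Ndufv, Uqcr or Atp5, those starting Cox4 to Cox8 followed by a letter, Sdha to Sdhd, and Cycs. This rule matched 91 of 17455 symbols, and 89 had at least 10 counts in at least 3 libraries; Cox8c and the pseudogene Cox6c-ps1 did not. Of the 89 genes, 81 encode subunits or cytochrome c, 7 are complex I assembly factors named Ndufaf, and Atp5if1 encodes the inhibitor of the ATP synthase. Levels are in CPM, a gene's counts scaled to a common library total after edgeR's TMM factors.

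Adult male Sprague-Dawley rats gave polyadenylated RNA of the left hippocampus, frozen a day after the last seizure. KA 3 Class V libraries (n = 3) came from rats that had electrodes implanted and were injected in increments with kainic acid, a glutamate receptor agonist, until status epilepticus. KI 3 Class V libraries (n = 4) came from rats with hippocampal electrodes that were stimulated repeatedly each day until fully kindled, a model in which repeated brief stimulation comes to trigger full seizures. Each model had its own sham group, KA sham (n = 7) and KI sham (n = 4), and the labels do not say what the shams received. The labels do not explain the term 3 Class V. Model, cohort and handling cannot be told apart when the KA and KI libraries are set against each other.

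Oxidative phosphorylation is the stage of respiration at which electrons from NADH and succinate pass to oxygen in the inner mitochondrial membrane. Complex I takes electrons from NADH and complex II takes them from succinate, complex III passes them to cytochrome c, and complex IV, cytochrome c oxidase, hands them to oxygen. Complexes I, III and IV pump protons, and complex V, the ATP synthase, uses the gradient to make ATP, on which synaptic transmission and ion pumping in the hippocampus depend. All complexes except II also hold subunits encoded in mitochondrial DNA, which are not analysed here.

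Total counts ran from 37172455 to 49943021 in KA 3 Class V libraries, from 32150130 to 42619628 in KA sham libraries, from 36117956 to 41195373 in KI 3 Class V libraries and from 30925368 to 38850420 in KI sham libraries. The 89 genes took between 1.09% and 2.55% of a library's counts. All 11 markers of a neuron list were present in every library, the lowest being Gad2 (8.75 to 115 CPM), so the defining neuron genes of the labelled tissue were detected throughout. The labels do not state that each library is a separate animal, so p-values measure the spread between libraries, part of which may be technical. The KI sham 4 library stood apart by a choroid plexus marker level 3.08 above the gene means on the log2 scale, the next highest being 2.33 in KA sham 3. KI sham 4 is left out of selected counts below, from which KA sham 3 was not removed. It also had the lowest mean subunit level of all libraries (-0.47). It was singled out with these values known, so the counts without it are a description.

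Promoter sequences are given for complex II, the one complex wholly encoded in the nucleus, and for Atp5md and Cox6a2, the subunit with the highest SD of log2 CPM within groups and the subunit with the largest called change. Of the 89 genes, 88 matched the RefSeq table by symbol and 1 by synonym, and 78 have a promoter there. The sequences are those of RefSeq's rat build GRCr8, the 250 bases before each gene's start, printed 5′ to 3′ on the gene's strand. Capitals mark the letters GCATGCGC of nuclear respiratory factor 1 (NRF1), CCGGAAG of the ETS family factor GABPA, AAGATGGC of YY1 or TCAAGGTCA of ERRA, each searched on both strands, factors known to act on nuclear genes for mitochondrial proteins. The Sdha segment lies at chr1:30764303-30764552, plus strand, Sdhb at chr5:158547684-158547933, plus strand, Sdhc at chr13:86098026-86098275, minus strand and Sdhd at chr8:59850642-59850891, minus strand. The Atp5md segment, listed under the synonym Atp5mk, lies at chr1:255922048-255922297, minus strand, and the Cox6a2 segment at chr1:192219717-192219966, minus strand.
Sdha: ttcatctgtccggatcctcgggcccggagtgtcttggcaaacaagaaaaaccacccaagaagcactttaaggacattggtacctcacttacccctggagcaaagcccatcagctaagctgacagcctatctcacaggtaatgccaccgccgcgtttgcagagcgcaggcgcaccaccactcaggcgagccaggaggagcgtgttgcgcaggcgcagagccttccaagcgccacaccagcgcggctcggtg
Sdhb: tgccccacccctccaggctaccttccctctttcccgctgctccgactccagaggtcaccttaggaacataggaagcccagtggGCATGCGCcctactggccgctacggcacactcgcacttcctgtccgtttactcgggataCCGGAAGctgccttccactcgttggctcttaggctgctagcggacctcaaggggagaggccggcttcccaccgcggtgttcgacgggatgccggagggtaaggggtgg
Sdhc: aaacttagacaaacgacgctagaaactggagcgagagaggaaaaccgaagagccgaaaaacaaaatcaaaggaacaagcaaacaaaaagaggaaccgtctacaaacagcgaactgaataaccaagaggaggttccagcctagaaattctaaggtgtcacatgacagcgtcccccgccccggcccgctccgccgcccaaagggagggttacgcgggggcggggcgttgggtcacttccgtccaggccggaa
Sdhd: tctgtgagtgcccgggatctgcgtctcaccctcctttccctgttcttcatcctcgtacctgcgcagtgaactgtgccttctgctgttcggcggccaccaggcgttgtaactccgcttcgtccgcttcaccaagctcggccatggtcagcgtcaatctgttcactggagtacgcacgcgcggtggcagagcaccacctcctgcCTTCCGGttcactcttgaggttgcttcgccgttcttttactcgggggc
Atp5md: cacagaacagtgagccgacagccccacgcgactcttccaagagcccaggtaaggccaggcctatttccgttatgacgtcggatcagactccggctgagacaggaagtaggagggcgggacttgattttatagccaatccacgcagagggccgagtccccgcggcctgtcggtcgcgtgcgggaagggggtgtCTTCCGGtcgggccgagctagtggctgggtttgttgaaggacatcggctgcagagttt
Cox6a2: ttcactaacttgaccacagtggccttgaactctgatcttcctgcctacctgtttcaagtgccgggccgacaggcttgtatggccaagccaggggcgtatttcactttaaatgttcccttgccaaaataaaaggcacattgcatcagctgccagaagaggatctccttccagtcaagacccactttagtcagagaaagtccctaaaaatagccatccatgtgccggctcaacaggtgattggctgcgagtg
Sdhb held an NRF1 and an ETS match, Sdhd and Atp5md an ETS match each, while Sdha and Cox6a2 held none of the 4 motifs. Sdhc had its YY1 match, and Sdhd a further ETS match and an ERRA match, within the 50 bases after the start, which are not printed. Over the 300 bases of the table's promoters, the NRF1 letters were in 12.7% of 71 subunits against 4.53% of the genes tested. The ETS letters were in 29.6% against 16%, and the YY1 letters in 21.1% against 4.99%. The ERRA letters were in 2.82%, only 2 subunits, against 0.224%. The second of each pair is the share over the 10711 tested genes, subunits included, that have a promoter in the table. Among all 33469 promoters the shares were 2.47%, 8.75%, 3.17% and 0.433%. These are matches of letters, with no measurement of binding.

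Most subunits varied together from library to library, and the shams spanned a wider range than the seizure groups. As a summary, each library was given the mean, over the 81 subunits, of how far log2 CPM lay from that gene's own mean in all 18 libraries. This level was -0.17, -0.29 and -0.10 in KA 3 Class V libraries, against a lowest of -0.30, a median of -0.08 and a highest of 0.77 in KA sham libraries. It was -0.34, -0.31, -0.31 and -0.09 in KI 3 Class V libraries, against 0.79, 0.30, 0.27 and -0.47 in KI sham libraries. KI sham 1, 2 and 3 lay above every KI 3 Class V library, KI sham 4 lay below all of them, and the KA groups overlapped. Complex II had the smallest spread of the 5 complexes, from -0.30 in KI sham 4 to 0.44 in KA sham 2. In bulk tissue, fewer cells of a type and less RNA per cell cannot be told apart.

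**Figure D1:**
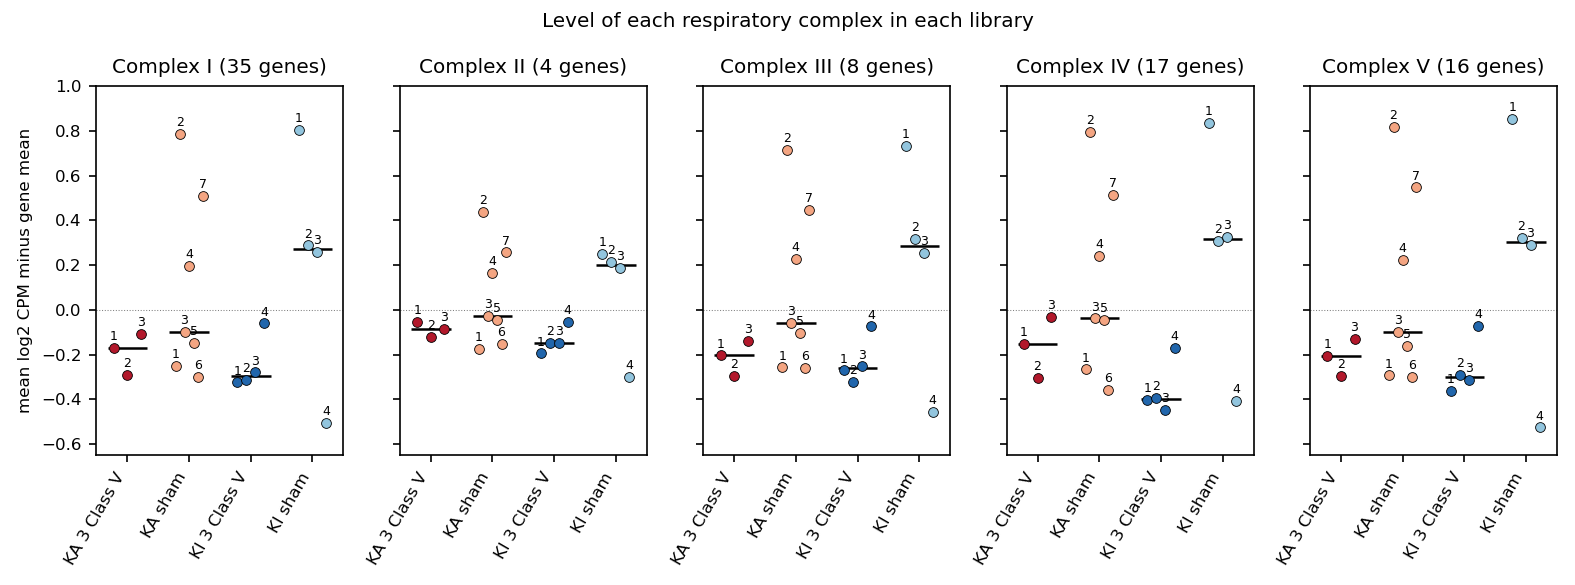
Level of each complex in each library, as the mean over its genes of the distance of log2 CPM from the gene's mean; points are libraries with their replicate numbers and bars are group medians. KA sham 2 (0.77 over all subunits) and KI sham 1 (0.79) are the highest and KI sham 4 (-0.47) the lowest, and complex II spans the smallest range.

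In the kainic acid model no gene of the 5 complexes passed the test. edgeR's quasi-likelihood test over 13338 genes, adjusted by Benjamini-Hochberg at 0.05, called 0 of the 89 genes higher and 0 lower in KA 3 Class V than in KA sham libraries, while over all genes it called 0.172% higher and 0% lower. At an unadjusted p under 0.05 the count was 0 higher and 1 lower, the assembly factor Ndufaf6, against 6.34% higher and 3.59% lower over all genes. Its log2 difference was -0.47 ± 0.20 (SE; edgeR adjusted p = 0.426). The log2 differences were below 0 for 85 of the 89 genes, and their median over the subunits was -0.38, against -0.01 over all genes tested. By complex the median was -0.38 for I, -0.14 for II, -0.38 for III, -0.38 for IV and -0.38 for V.

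In the same comparison, blood markers had a median log2 difference of -1.80, with 0 of 5 called and 5 lower at an unadjusted p under 0.05. Their library level ran from -1.29 to -0.14 in KA 3 Class V libraries and from -1.18 to 2.67 in KA sham libraries, highest in KA sham 2. Oligodendrocyte markers had a median of -0.50, with 0 of 8 called and 5 lower at an unadjusted p under 0.05, and microglia markers a median of 0.57, with 0 of 9 called and 4 higher at that level. The 8 astrocyte markers had a median of 0.11, 5 above 0 and 3 below. Of them Gfap, an intermediate filament protein of astrocytes, was called higher (1.24 ± 0.24, SE; edgeR adjusted p = 0.041). The part of these markers in the subunit differences was not tested.

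The lowest log2 differences in the KA model were those of Atp5md and Ndufb8. Atp5md, a small membrane subunit of the ATP synthase, had 89, 82.2 and 99 CPM in KA 3 Class V libraries and 77.4 at the lowest, 97 at the median and 356 at the highest in KA sham libraries. The groups overlapped, and the log2 difference was -0.77 ± 0.47 (SE; edgeR adjusted p = 0.622). Ndufb8, an accessory subunit of the membrane arm of complex I, had 196, 191 and 213 CPM in KA 3 Class V libraries and 179 at the lowest, 229 at the median and 623 at the highest in KA sham libraries, also overlapping, with a log2 difference of -0.68 ± 0.35. Cox7c of complex IV (-0.66), Uqcr10 of complex III (-0.62) and Sdhd, a membrane anchor of complex II (-0.41), had the lowest log2 differences of their complexes. The highest of each complex were 0.08 for Ndufa10l1, -0.03 for Sdha, -0.10 for Uqcrc1, 0.32 for Cox6a2 and -0.08 for Atp5f1a, the alpha subunit of the catalytic head. None of these passed the test.

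Uqcrc2 and Ndufaf3, named after their values were seen, were lower in every KA 3 Class V library than in every KA sham library. They are 2.25% of the 89 genes, against 2.7% of all genes tested that separated this way. Uqcrc2, a core protein of complex III, had 193, 182 and 193 CPM in KA 3 Class V libraries and 196 at the lowest, 217 at the median and 263 at the highest in KA sham libraries. Its log2 difference was -0.25 ± 0.12 (SE; edgeR adjusted p = 0.509). No member was higher in every KA 3 Class V library, a pattern shown by 2.95% of all genes.

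**Figure D2:**
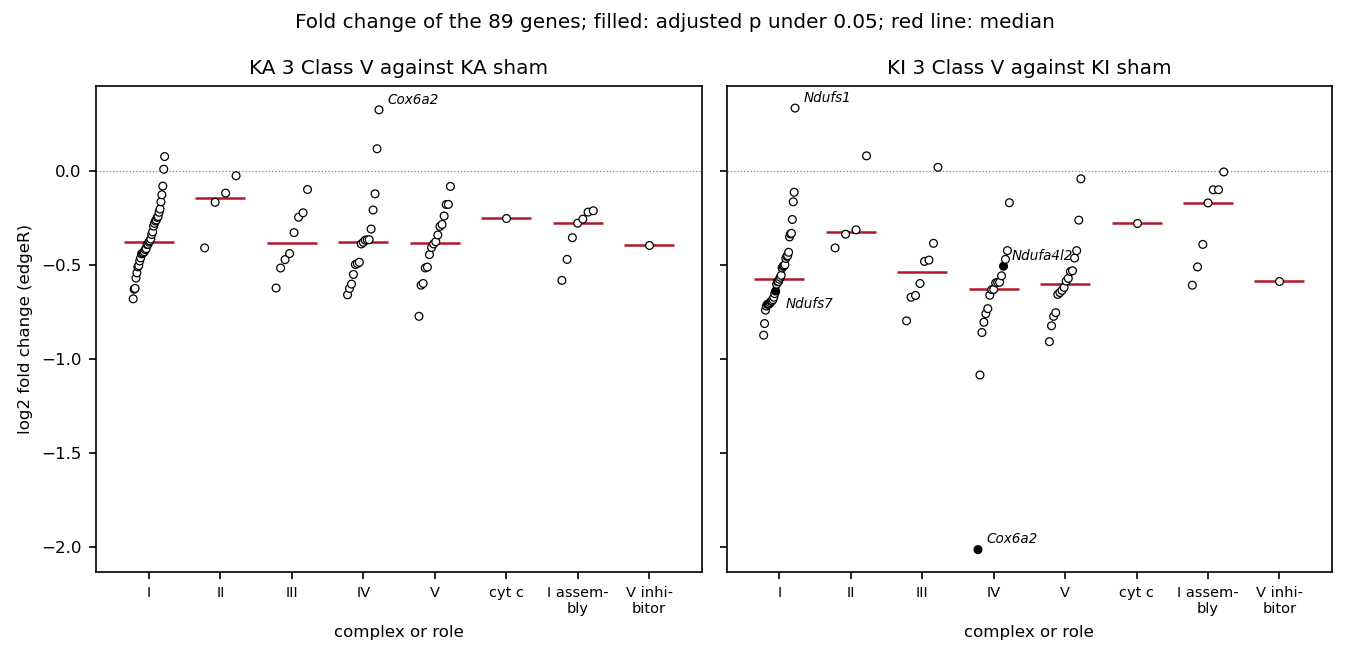
log2 fold change of each of the 89 genes by complex or role, 3 Class V over sham in each model; filled points have an edgeR adjusted p under 0.05 and red lines are medians. Most points lie below 0 in both panels, and only Cox6a2 (-2.01), Ndufa4l2 (-0.51) and Ndufs7 (-0.64) are filled, all in the kindling model.

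In the kindling model 3 subunits were called lower, a smaller share than over all genes: Cox6a2 and Ndufa4l2 of complex IV and Ndufs7 of complex I. They are 3.37% of the 89 genes, against 5.25% of all genes called lower in KI 3 Class V libraries, and 0 of the 89 were called higher, against 4.74% of all genes. At an unadjusted p under 0.05 there were 38 lower and 1 higher, where all genes gave 18.2% lower and 17.2% higher. The log2 difference was below 0 for 86 of the 89 genes, with a median of -0.59 over the subunits and -0.04 over all genes. The medians by complex were -0.58 for I, -0.32 for II, -0.54 for III, -0.63 for IV and -0.60 for V.

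Cox6a2 encodes the heart and muscle isoform of a cytochrome c oxidase subunit and was among the least abundant of the genes by count. It had 0.315, 0.225, 0.169 and 0.236 CPM in KI 3 Class V libraries and 0.968, 0.638, 1.87 and 0.351 CPM in KI sham libraries. All 4 KI 3 Class V libraries were below all 4 KI sham libraries, and the log2 fold change was -2.01 ± 0.53 (SE; edgeR adjusted p = 0.0348). It had 0.787, 0.617 and 1.52 CPM in KA 3 Class V libraries and 0.284 at the lowest, 0.833 at the median and 1.12 at the highest in KA sham libraries, which overlapped. The KA change minus the KI change was 2.34 ± 0.69 on the log2 scale and did not pass (edgeR adjusted p = 0.0694).

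Ndufa4l2 is the paralog of Ndufa4 known to be induced by low oxygen. It had 3.56, 4.33, 4.34 and 4.58 CPM in KI 3 Class V libraries and 7.12, 6.22, 4.96 and 5.62 CPM in KI sham libraries, without overlap, a log2 fold change of -0.51 ± 0.16 (SE; edgeR adjusted p = 0.0487). Ndufs7, a core iron-sulphur subunit next to the quinone site, had 109, 97.3, 113 and 130.4 CPM in KI 3 Class V libraries and 271, 165, 159 and 107 CPM in KI sham libraries. KI sham 4 lay within the KI 3 Class V range, and the log2 fold change was -0.64 ± 0.20 (SE; edgeR adjusted p = 0.04996). The adjusted p of Ndufs7 and Ndufa4l2 lay just inside the 0.05 threshold, with Atp5mc2 (0.0549) and Ndufs1 (0.0572) just outside it. Leaving out any 1 of the KI 3 Class V libraries left 0 of the 89 genes called, and between 0.06% and 2% of all genes called lower.

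**Figure D3:**
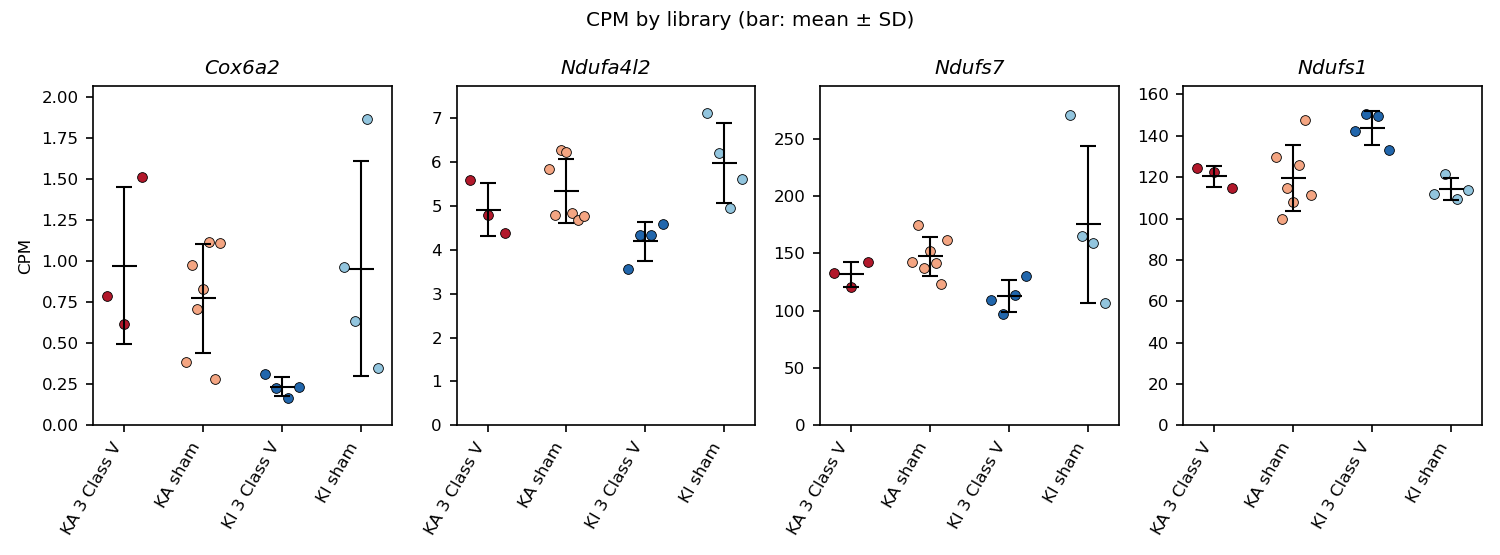
CPM of 4 genes in each library, with group mean and SD as bars; the axes start at 0. Cox6a2 averaged 0.236 ± 0.0601 CPM in KI 3 Class V and 0.956 ± 0.658 CPM in KI sham libraries, and Ndufs1 is the one gene of the 4 that lies higher in KI 3 Class V than in KI sham libraries.

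Ndufs1, the largest core subunit of complex I, was the one gene whose KI 3 Class V libraries were all above the KI sham libraries, a pattern that 12.1% of all genes showed. It had 142, 151, 149.8 and 133 CPM in KI 3 Class V libraries and 112, 122, 109 and 114 CPM in KI sham libraries, a log2 difference of 0.33 ± 0.11 (SE; edgeR adjusted p = 0.0572). In the KA model the groups overlapped, at 124, 122 and 115 CPM in KA 3 Class V libraries and 99.8 at the lowest, 115 at the median and 148 at the highest in KA sham libraries. Of the 7 core subunits of complex I, Ndufs7 was the one called, and Ndufs8 had -0.67 ± 0.23 (edgeR adjusted p = 0.0605). Ndufa10l1, a close paralog of the accessory subunit Ndufa10, separated downwards together with Cox6a2 and Ndufa4l2, which makes 3.37% of the 89 genes against 8.07% of all genes. It had 45.3, 44.3, 45.7 and 43.1 CPM in KI 3 Class V libraries and 69.7, 56.1, 51.4 and 47.8 CPM in KI sham libraries (log2 difference -0.33 ± 0.17). Reads shared with Ndufa10 make its value uncertain, since the handling of multimapping reads is not stated. The accessory subunit Ndufa2 had the lowest log2 difference of complex I, -0.87 ± 0.36, with 48.5, 46.2, 54.2 and 62.5 CPM in KI 3 Class V libraries and 154, 90.3, 96.6 and 46.7 CPM in KI sham libraries.

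In complex II, which also serves the citric acid cycle, the log2 differences ran from -0.41 for Sdhd to 0.08 for Sdha. Its flavoprotein Sdha had 293, 286, 313 and 308 CPM in KI 3 Class V libraries and 260.0, 313, 293 and 269.7 CPM in KI sham libraries (log2 difference 0.08 ± 0.09). Its iron-sulphur subunit Sdhb had 118, 119.9, 116 and 121 CPM in KI 3 Class V libraries and 169.8, 158, 156 and 106 CPM in KI sham libraries (-0.31 ± 0.14). Sdha overlapped and kept to a narrow band, while for Sdhb KI sham 4 alone fell below the KI 3 Class V libraries. The anchors Sdhc and Sdhd had log2 differences of -0.34 ± 0.17 and -0.41 ± 0.23. Sdhd had 101, 103, 104 and 118 CPM in KI 3 Class V libraries and 165, 152, 155 and 93.5 CPM in KI sham libraries, with KI sham 4 again the lowest, and no subunit of complex II passed the test.

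In complex III the core protein Uqcrc2 had 223, 232, 221 and 222 CPM in KI 3 Class V libraries and 226, 262, 220.3 and 177 CPM in KI sham libraries (0.02 ± 0.12). The small subunit Uqcrq had 133, 119, 132 and 162 CPM in KI 3 Class V libraries and 368, 228, 229.7 and 125 CPM in KI sham libraries (-0.80 ± 0.31), the lowest of the complex. These were the highest and lowest of the complex, and neither passed the test (edgeR adjusted p = 0.914 and 0.0851). Uqcrc1, the other core protein, had -0.38 ± 0.15, Uqcr10 -0.66 ± 0.32 and the hinge protein Uqcrh -0.60 ± 0.30. Cytochrome c1 (Cyc1), whose symbol the rule does not match, had 198, 193, 211 and 226 CPM in KI 3 Class V libraries and 324, 253, 237 and 178 CPM in KI sham libraries (-0.26 ± 0.13). The carrier cytochrome c (Cycs) had 186, 219, 196 and 217 CPM in KI 3 Class V libraries and 359, 239.8, 242 and 149.5 CPM in KI sham libraries, which overlapped (-0.28 ± 0.23).

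Complex IV holds the isoform pairs. For subunit 4, the widespread isoform Cox4i1 had 523, 533, 565 and 711 CPM in KI 3 Class V libraries and 1455, 986, 1029 and 475 CPM in KI sham libraries (-0.76 ± 0.33). Its oxygen-responsive isoform Cox4i2 had 2.52, 3.61, 1.91 and 2.57 CPM in KI 3 Class V libraries and 3.94, 2.96, 2.21 and 2.86 CPM in KI sham libraries (-0.17 ± 0.22). The groups overlapped for Cox4i2, and Cox4i1 was lower in KI 3 Class V libraries than in KI sham 1, 2 and 3. For subunit 6a, the widespread Cox6a1 had -0.59 ± 0.26, a smaller difference than that of Cox6a2. The other pairs had log2 differences of -0.59 for Cox6b1 and -0.86 for its testis isoform Cox6b2, -0.56 for Cox8a and -1.08 for its muscle isoform Cox8b, and -0.59 for Ndufa4. Cox7a2, whose muscle isoform Cox7a1 is not analysed here, had -0.80. Cox8b stayed under 1 CPM in every library and Cox6b2 between 1.18 and 5.5 CPM in the KI libraries, and none of these pairs other than Cox6a2 and Ndufa4l2 had a called member.

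In complex V the catalytic alpha subunit Atp5f1a had 738, 707, 747 and 749 CPM in KI 3 Class V libraries and 844, 868, 732 and 584 CPM in KI sham libraries (-0.04 ± 0.11). Atp5md had 79.6, 95.4, 81.7 and 111 CPM in KI 3 Class V libraries and 303, 153, 169 and 65.1 CPM in KI sham libraries (-0.91 ± 0.47). The groups overlapped for both, through KI sham 3 and 4 for Atp5f1a and through KI sham 4 for Atp5md. Atp5if1, which blocks ATP hydrolysis by the synthase, had 129.6, 133, 139 and 160.0 CPM in KI 3 Class V libraries and 301, 205, 220.5 and 115 CPM in KI sham libraries (-0.58 ± 0.27), and in the KA model its log2 difference was -0.40 ± 0.27. None of the 16 subunits of complex V was called.

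The number of genes called in the kindling model depended on single libraries. KI 3 Class V libraries were all lower than KI sham 1, 2 and 3 for 80 of the 89 genes, where 24.7% of all genes tested were, and KI sham 4 was lower than every KI 3 Class V library for 66, where 38.2% of all genes were. Without KI sham 4, edgeR called 64 of the 89 genes lower, 71.9%, and 0 higher, against 17.6% lower and 14.6% higher over all genes, and the subunit median was -0.82. By complex, 27 of 35 genes of complex I, 2 of 4 of II, 7 of 8 of III, 12 of 17 of IV and 13 of 16 of V were called lower. The genes not called included Sdha (0.03 ± 0.09, edgeR adjusted p = 0.84), Uqcrc2 (-0.10 ± 0.12, 0.494) and Atp5f1a (-0.18 ± 0.10, 0.161), while Cox6a2 had -2.33 ± 0.51 (0.00953) and Ndufs7 -0.84 ± 0.17 (0.0086). KI sham 1, the highest library, acted the other way on the subunit median, which was -0.33 without it. The test then called 1 gene, Cox6a2, lower, and the figure that follows draws the share of all genes beside that count. Without KI sham 3 the test called 0 of the 89 genes, against 0.631% of all genes lower, and without KA sham 2 it called 11 lower, against 9.35%.

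**Figure D4:**
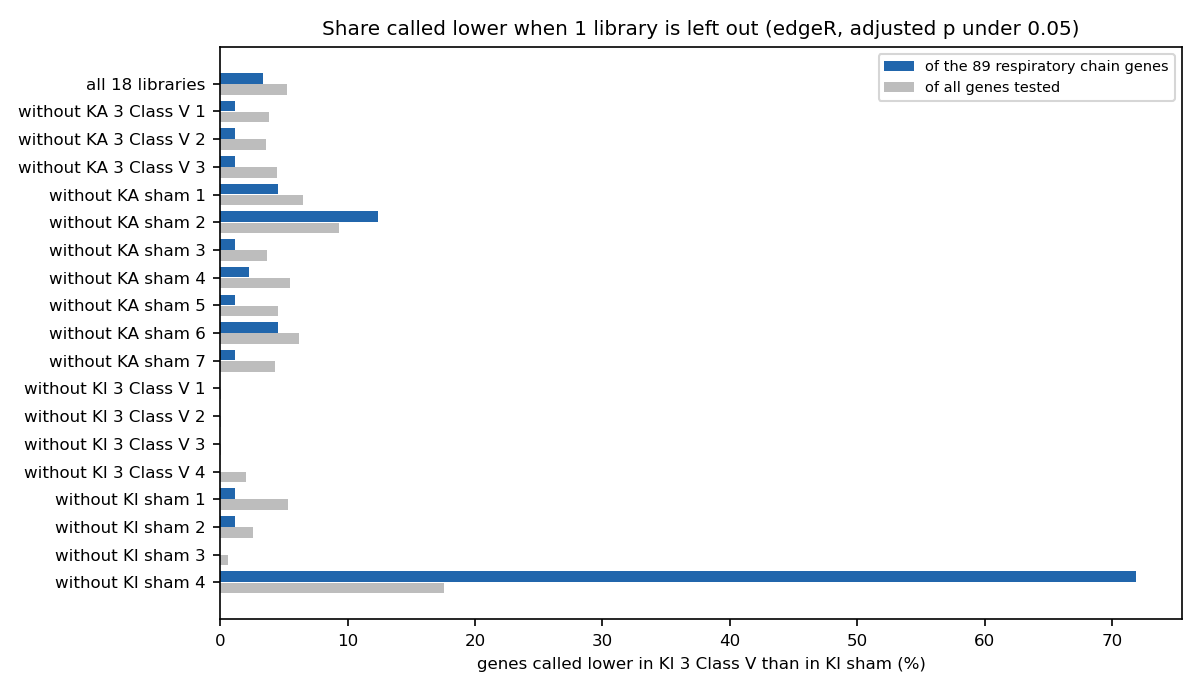
Share of the 89 genes and of all genes tested that edgeR called lower in KI 3 Class V than in KI sham libraries, with all 18 libraries and with each left out; bars start at 0. Leaving out KI sham 4 gives 71.9% of the 89 genes against 17.6% of all genes, where all libraries give 3.37% against 5.25%.

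Genes for cytosolic ribosomal proteins had a library level, made the same way, of -0.54, -0.46, -0.51 and -0.21 in KI 3 Class V libraries, and of 0.82, 0.29, 0.47 and -0.40 in KI sham libraries. The highest and lowest KI sham libraries were the same as for the subunits, and the highest level of all was 1.08 in KA sham 2, also the highest KA sham library for the subunits. In the kindling comparison 6 of 82 ribosomal protein genes were called lower, with a median of -0.82. With their level as a covariate 0 of the 89 genes were called, against 0.315% of all genes higher and 0.51% lower, and the subunit median was 0.09. That level was itself lower in KI 3 Class V libraries than in KI sham 1, 2 and 3, so its part and the group's cannot be fully told apart. Neuron markers had a median of 0.47 over 11 genes with Syt1, Slc17a7 and Gad2 called higher, and their library level ran from 0.22 to 0.51 in KI 3 Class V libraries and from -0.58 to -0.08 in KI sham libraries. Microglia markers had a median of -1.11 with 5 of 9 called lower, oligodendrocyte markers a median of -0.60 with 2 of 8 called lower, choroid plexus markers a median of -1.95 with 0 of 7 called, and blood markers a median of -1.21 with 0 of 5 called. The 8 astrocyte markers had a median of 0.03, 4 above 0 and 4 below, with Aqp4 called higher. The 7 endothelial and pericyte markers had a median of 0.13, 4 above 0 and 3 below, with Cldn5 called lower. Among KI sham libraries the blood level was highest in KI sham 1 (1.30), as the subunit level was, while neuron and microglia levels were lowest there (-0.58 and -0.37), and the choroid plexus level was highest in KI sham 4, where the subunits were lowest. The covariate held the ribosomal protein level alone, and the part of the cell type and blood markers in the subunit differences was not tested.

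The models were also compared directly. The KA change minus the KI change had a median of 0.18 over the subunits, which was 0.40 without KI sham 4 and -0.04 without KI sham 1, and called 0 of the 89 genes, against 3.15% of all genes higher and 0.652% lower. At an unadjusted p under 0.05 it gave 1 of the 89 higher (Cox6a2) and 1 lower (Ndufs1), against 11.4% and 9.17% of all genes. KA 3 Class V against KI 3 Class V libraries gave a median of 0.05 (-0.01 without KA 3 Class V 3 and 0.12 without KI 3 Class V 4) and 0 calls, against 2.47% higher and 0.352% lower over all genes, and at an unadjusted p under 0.05 it gave 1 higher and 1 lower, the same 2 genes, against 10.6% and 7.17%. Cox6a2 came nearest there, 2.03 ± 0.55 (SE; edgeR adjusted p = 0.0561). KA sham against KI sham libraries gave a median of -0.13, which was -0.36 without KI sham 4, -0.28 without KA sham 2, 0.09 without KI sham 1 and -0.33 by limma-voom, and 0 calls, against 0% higher and 0.0075% lower over all genes, and 0 at an unadjusted p under 0.05, against 4.05% higher and 4.58% lower. A test for any difference among the 4 groups called 0 of the 89 genes and 1.63% of all genes, and at an unadjusted p under 0.05 10 of the 89 and 25.4% of all genes. These comparisons share libraries with those within each model.

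The subunits differed in how steady they were between libraries of a group. The SD of log2 CPM within groups had a median of 0.408 over the 81 subunits and 0.286 over all genes tested. The steadiest was Sdha, at 260 to 326 CPM over the 18 libraries (SD 0.0849), followed by Ndufs1 (0.135), Atp5f1a (0.137), Uqcrc2 (0.152) and Ndufa10 (0.179), from complexes I, II, III and V. The highest SD was that of Atp5md (0.709), at 65.1 to 356 CPM, a 5.47-fold range, while the low-count Cox6a2 (11.1-fold) and Cox8b (5.55-fold) had wider ranges over the 18 libraries. KA sham 2 held the highest value for 43 of the 81 subunits and KI sham 1 for 31, and KI sham 4 held the lowest for 58. After the group means were removed, the median correlation of a subunit with the others over the 18 libraries was at least 0.9 for 60 of the 81, and it was below 0 for Ndufs1 (-0.62) and Sdha (-0.29). These points share library depth and composition, and the correlations are given as a description.

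Ratios of a wider-ranging to a steadier subunit of the same complex, in pairs chosen after their values were seen, varied likewise. Counts of Ndufb8 over those of Ndufs1 gave 1.56, 1.58 and 1.86 in KA 3 Class V libraries from lowest to highest, and 1.21 at the lowest, 1.99 at the median and 6.23 at the highest in KA sham libraries. The ratio ran from 1.26 to 1.78 (median 1.29) in KI 3 Class V libraries and from 1.36 to 4.06 (median 2.99) in KI sham libraries. Atp5md over Atp5f1a ran from 0.108 to 0.148 in KI 3 Class V libraries and from 0.111 to 0.359 in KI sham libraries. Sdhd over Sdha ran from 0.331 to 0.383 in KI 3 Class V libraries and from 0.347 to 0.633 in KI sham libraries. Cox7c over Cox5a ran from 0.802 to 1.24 in KI 3 Class V libraries and from 1.04 to 1.34 in KI sham libraries, and Uqcr10 over Uqcrc2 from 0.374 to 0.509 in KI 3 Class V libraries and from 0.493 to 0.939 in KI sham libraries. The groups overlapped in all of these ratios, and the sham libraries spanned the wider range in each but Cox7c over Cox5a, where the KI 3 Class V libraries did. Since transcript lengths were not available, these ratios compare libraries and not the levels of the 2 genes.

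**Figure D5:**
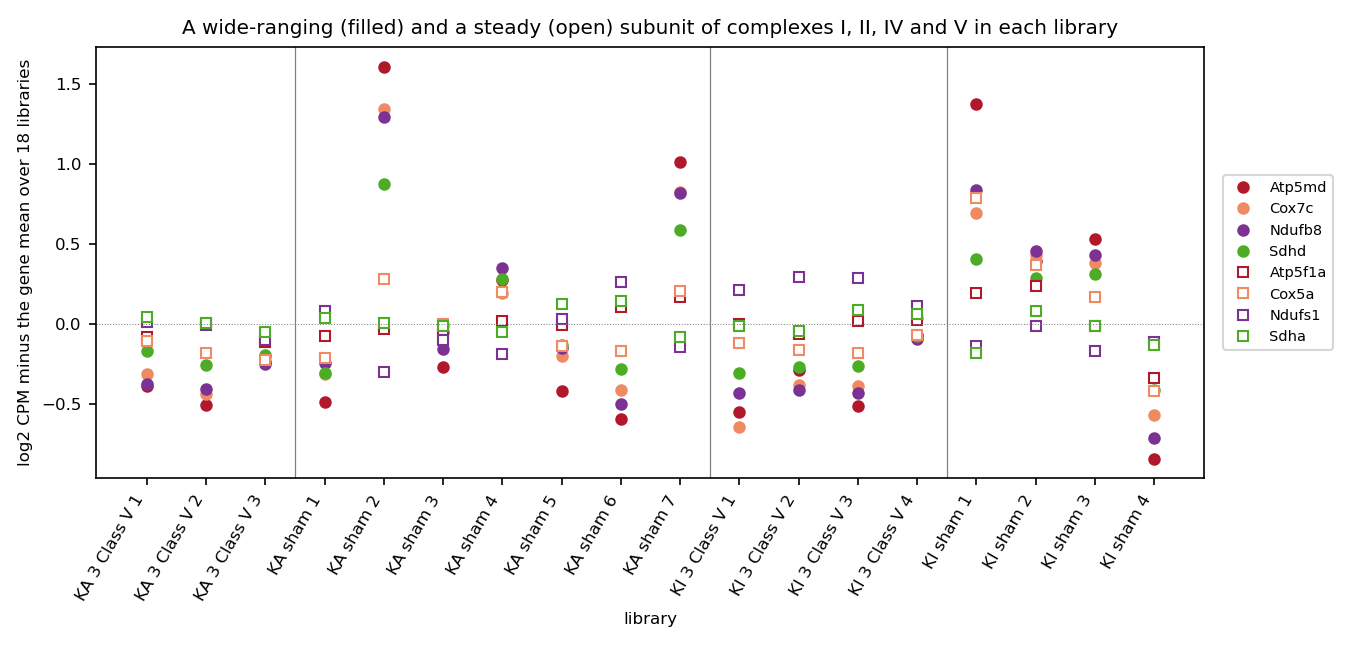
Distance of log2 CPM from the gene's mean for the wider-ranging (filled) and the steadier (open) of 2 subunits of complexes V, IV, I and II in each library; vertical lines part the groups. The filled points are far apart in KA sham 2, KA sham 7, KI sham 1 and KI sham 4, where Sdha, Ndufs1 and Atp5f1a lie closer to 0. Cox5a, also open, spans a 2.31-fold range, lowest in KI sham 4 and highest in KI sham 1.

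Lists of related genes are set here against the 4.74% of all genes called higher and the 5.25% called lower in the kindling model. Assembly factors of all complexes other than the Ndufaf genes had 32 tested, with 0 called in the KA model. In the kindling model 25 of the 32 had a log2 difference below 0, with a median of -0.23, and 0 were called lower. There Atpaf1, which helps assemble the catalytic head of the ATP synthase, was called higher (0.33 ± 0.09, SE; edgeR adjusted p = 0.0358). It had 40.9, 41.7, 43.9 and 45.7 CPM in KI 3 Class V libraries and 30.7, 35.8, 35.9 and 34.8 CPM in KI sham libraries. Of 18 genes of the citric acid cycle and pyruvate dehydrogenase, 0 were called in the KA model and Pdha1, a catalytic subunit of pyruvate dehydrogenase, was called higher in the kindling model (0.33 ± 0.09; edgeR adjusted p = 0.0358). Of 16 glycolysis genes, Pfkp, the platelet-type phosphofructokinase, was called higher in the kindling model (0.63 ± 0.15; edgeR adjusted p = 0.029) and 0 in the KA model. For Atpaf1, Pdha1 and Pfkp every KI 3 Class V library lay above the KI sham libraries, as for 12.1% of all genes. The 19 regulators of mitochondrial biogenesis gave 0 calls, the nearest being the orphan receptor Esrrg in the kindling model (0.82 ± 0.28; edgeR adjusted p = 0.0619). The 71 mitochondrial ribosomal protein genes gave 0 calls, with medians of -0.24 in the KA model and -0.47 in the kindling model.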

How the data were processed

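RNA-seq of 18 libraries was analysed from the table of raw read counts per gene symbol that the authors deposited. The tools named by the submitters' processing notes are HISAT2 and featureCounts, with Trimmomatic, FastQC and DESeq2, on rat build rn6. Their versions, the annotation, strandedness and handling of multimapping reads were not given in the sources used here, and many subunit genes have near-identical copies, so their counts are uncertain where copies exist. Groups and replicate numbers came from the titles, and 0 columns were left unmatched.

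Counts were filtered with filterByExpr, which kept 13338 genes and all 89 genes described, and tested with edgeR 4.0.16 in R 4.3.3 (TMM factors, robust glmQLFit, glmQLFTest, two-sided, 4 group means in 1 fit, 14 residual degrees of freedom, Benjamini-Hochberg at 0.05). The steps were tested on simulated data. Alternatives were RLE and upper quartile factors, no filter, DESeq2 1.42.0, limma 3.58.1 (voom with quality weights), each model alone, a replicate block, the ribosomal protein level as covariate, and each library left out. Ndufa4 and Ndufa4l2 were set with complex IV, as was Cox7a2l, known as a supercomplex assembly factor. S6 kinases, whose symbols start Rps6k, were left out of the ribosomal list.

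Genes were named if called in a comparison, if highest or lowest of their complex within a model, if one of an isoform pair, or if in complex II, with Cycs, Cyc1 and Atp5if1; of other lists, those called or nearest to it. Ndufaf6, Ndufaf3, Ndufs8, Ndufa10, Cox5a, Atp5mc2 and the ratio pairs were picked with their values known. The members and lists were chosen with earlier results of these data known.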

Additional observations from a re-analysis of the deposited data

Results flagged for a closer look

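Complex levels and named genes were examined within the KA sham, KI 3 Class V and KI sham libraries, 108 sets of values of 4 or 7 libraries. In 6 of them a library lay far from the others by Dixon's criterion. Chance gives about 1 in 20, so 6 is near what chance gives. The sets are not independent, since most subunits varied together. The library KI 3 Class V 4 lay above the other KI 3 Class V libraries in the mean log2 level of all subunits (-0.0861) and of complex I (-0.0611), in Ndufb8 (237 CPM) and in Cox6b1 (239 CPM). The library KI sham 4 lay below the other KI sham libraries in the mean log2 level of complex II (-0.30) and in Sdhd (93.5 CPM).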

How the results depend on the processing

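In the kindling comparison 3 genes were called lower and 0 higher. RLE factors gave 2 lower (2.25%, against 5.43% of all genes), upper quartile factors 5 (5.62%, against 7.33%) and no filter 1 (1.12%, against 4.09%). DESeq2 gave 9 lower (10.1%) and 1 higher (1.12%), where 8.89% of all genes were lower and 9.84% higher. With limma-voom and quality weights there were 78 lower (87.6%) and 1 higher (1.12%), where 28.0% of all genes were lower and 27.1% higher. Fitting each model alone gave 0, where 2.91% of all genes were lower. The ribosomal covariate also gave 0, where 0.51% of all genes were lower, and turned the subunit median to 0.0894. Leaving out 1 library gave 0 to 64 lower and 0 to 1 higher, with subunit medians from -0.82 to -0.33. The highest count came without KI sham 4 (17.6% of all genes lower), and without KA sham 2 it was 11 (9.35% of all genes). Chosen after seeing the data, leaving out KA sham 3 and KI sham 4, the libraries with the highest choroid plexus levels, gave 59 lower (16.4% of all genes). Leaving out KA sham 4, KI 3 Class V 1 and KI sham 2, in which ribosomal RNA-like genes took 9.67%, 16.3% and 16.4% of counts, gave 0 (0.12% of all genes).

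In the KA comparison the counts stayed at 0 under every alternative except the ribosomal covariate. It gave 2 lower (Ndufb8, Uqcr10), 2.25% against 0.435% of all genes. Leaving out 1 library gave medians from -0.46 to -0.22. For the KA change minus the KI change, where 0 were called, DESeq2 gave 1 higher (1.12%, against 4.98% of all genes). With limma-voom there were 9 higher (10.1%, against 16.7%) and 1 lower (1.12%, against 19%). The ribosomal covariate gave 17 lower (19.1%, against 3.09% of all genes), with a median of -0.28. Leaving out 1 library gave 0 to 1 higher. For KA 3 Class V against KI 3 Class V, DESeq2 gave 1 higher (1.12%, against 4.65% of all genes). With limma-voom there were 1 higher (1.12%, against 17.6%) and 2 lower (2.25%, against 21%). The covariate gave 13 lower (14.6%, against 2.76% of all genes), with a median of -0.24. Leaving out 1 library gave 0 to 1 higher there. For any difference among the 4 groups, DESeq2 gave 1 (1.12%), against 12.7% of all genes, and limma-voom 78 (87.6%), against 67.8%. Leaving out 1 library gave 0 to 18, the highest without KI sham 4, and leaving out KA sham 3 and KI sham 4 gave 6. The share of all genes called also moved between such fits. It was 0.164% without KA 3 Class V 3 and 5.11% without KA sham 1, with 0 of the 89 genes called in each. The counts of 18 and 6 are given without that share and are a description. KA sham against KI sham stayed at 0 under all of these.

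Replicate numbers did not pair the libraries: deviations of same-numbered libraries correlated at -0.15 to 0.01 in the KA model and -0.17 to -0.07 in the kindling model. With the replicate block, 0 of the 89 genes and 0 of all genes were called in the kindling comparison, with a subunit median of -0.51. For the KA change minus the KI change, the ribosomal covariate turned Ndufb8 (-0.59), Uqcr10 (-0.50), Atp5md (-0.68), Cox7a2 (-0.49) and Uqcrh (-0.43), all above 0 and not called without it, to below 0 and called. The cause of these differences was not tested. Genes under 1 CPM, such as Cox8b and Cox6a2 in several libraries, are the least precise.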
